A study of Mus musculus with 48 samples.

Results

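The immediate early transcription factors examined here were 10 genes, Fos, Fosb, Jun, Junb, Jund, Atf3, Egr1, Klf4, Nr4a1 and Ier2, picked by name from the 29801 genes of a table of RNA levels in mouse tibia. Their levels were read in male C57BL/6J mice of 4 groups with 3 mice each: young CR, young AL, aged CR and aged AL. CR stands for caloric restriction and AL for ad libitum feeding. The restriction was stepped, with 10% less food in week 1, 20% less in week 2 and 40% less for the remainder of its 8 weeks, whereas AL mice ate freely. The design gives young mice as 10 weeks and aged mice as 15 to 18 months old, ages that the methods place at the start of the restriction. By the methods of the study, mice lived 1 to a cage, the CR ration was timed to the night phase, and the restriction went with a diet enriched in micronutrients. Osteotomies of the right tibia were part of the study, and the sources used here do not say which of the sequenced mice had one. RNA came from the whole tibia ground to powder after muscle and connective tissue had been taken off, so bone cells, marrow cells and vessels are mixed, and fewer cells of a type cannot be told apart from less RNA per cell. Each of the 12 mice has 4 technical repeats among the 48 labelled libraries but 1 value in the table, so the mouse was the unit of every comparison and a p-value reflects how far mice of 1 group differ.

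Immediate early genes are transcribed within minutes of a stimulus from factors that are already in the cell, without new protein, and their transcripts are short-lived. Fos and Jun proteins pair through leucine zippers to form AP-1, which binds short palindromic sites in the promoters and enhancers of later genes, and the serum response factor, the ternary complex factors and CREB carry growth factor, mechanical and stress signals to the immediate early promoters. In bone, AP-1 is required for osteoclasts to form and also acts in osteoblasts, and mechanical loading and parathyroid hormone induce Fos.

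Levels are given in FPKM, sequenced fragments divided by transcript length in kilobases and scaled to the number of mapped reads, which are comparable between genes because they are per length. Ier2, a nuclear regulator induced by serum, had the highest mean of the 10 over the 12 mice at 28.2 FPKM, followed by Jund at 20.3 FPKM and Junb at 14.3 FPKM. Jund is the Jun protein that most cells keep at a steady level, and Junb is a weaker activator that also restrains Jun. Klf4, a zinc finger factor of epithelial and myeloid differentiation, averaged 7.58 FPKM. Fos and Nr4a1 both averaged 4.75 FPKM, Jun 3.95 FPKM, Atf3 2.69 FPKM and Egr1 2.35 FPKM. Nr4a1 is an orphan nuclear receptor, Atf3 a bZIP repressor and activator of the stress response, and Egr1 a zinc finger factor of the serum response. Fosb, the second Fos protein of AP-1, averaged 0.152 FPKM, below the minimum mean of 1 FPKM that was set for testing, so 9 of the 10 members were among the 13590 genes tested. Among the tested members the spread between mice was largest for Atf3, whose highest mouse was 4.59 times its lowest, and for Nr4a1 at 3.41 times. It was smallest for Klf4 at 1.26 times.

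**Figure D1:**
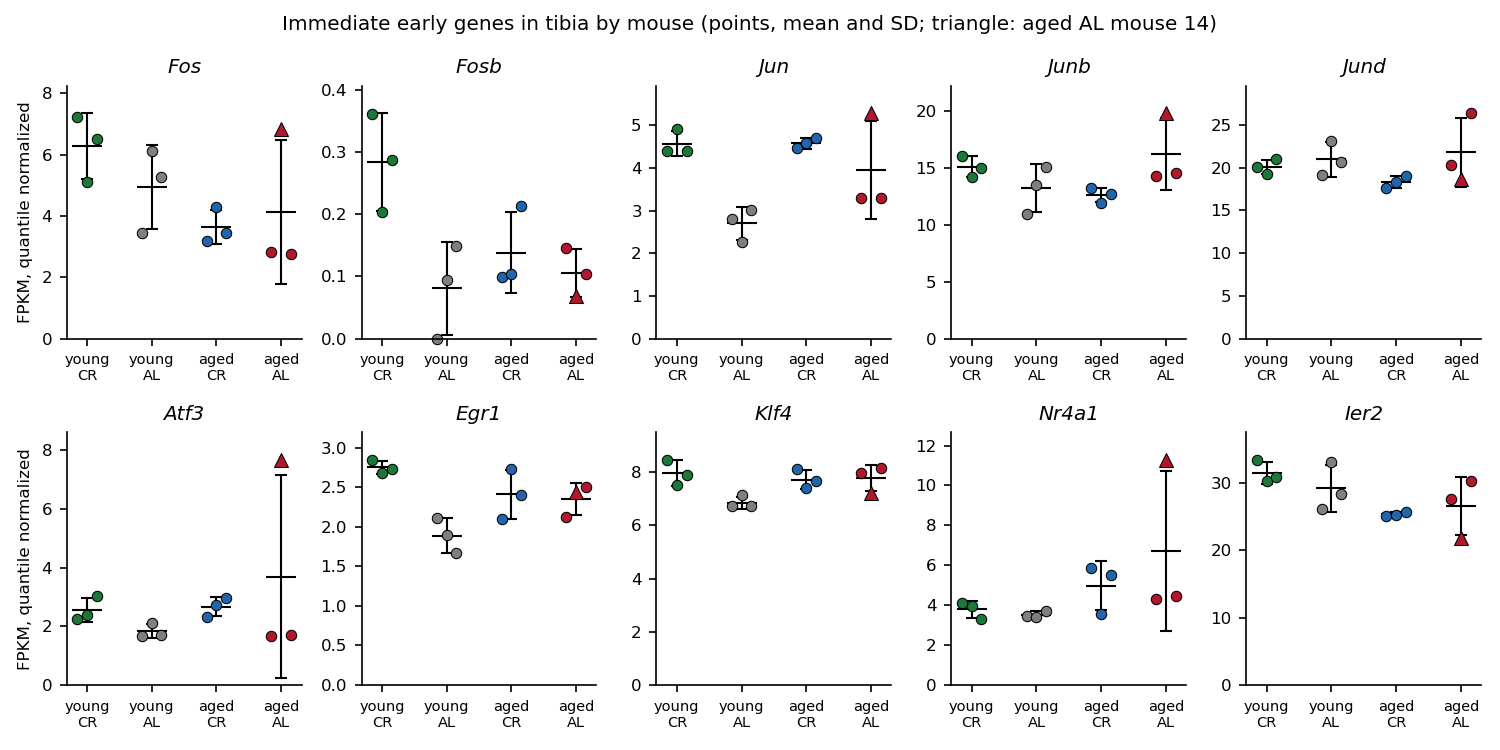
FPKM (quantile normalized, linear axes from 0) of the 10 members in each mouse, with points for the 3 mice of each group, a long dash for the group mean and bars for the SD. The triangle is aged AL mouse 14, which was the highest of the 12 mice for Jun, Junb, Atf3 and Nr4a1, and the young AL mice were the lowest 3 of the 12 for Jun and Klf4.

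Promoter sequences are shown for Jun and Fos, the founding members of AP-1, and for Atf3 and Nr4a1, which differed most between mice. They come from RefSeq on GRCm38.p6, and a window was found for 8 of the 10 members. Each runs 5′ to 3′ along the gene's strand, from 250 bases before the start of transcription to 50 bases after it, and positions are counted from that start, with -1 the base before it. The Jun window is chr4:95052173-95052472 on the minus strand, the Fos window chr12:85473640-85473939 on the plus strand, the Atf3 window chr1:191183284-191183583 on the minus strand and the Nr4a1 window chr15:101266596-101266895 on the plus strand. Capitals mark the octamer TGACNTCA in Jun, TGACG and TATAAA in Fos, TGATGNAA and TGACG in Atf3, and TGACG and GCGNGGGCG in Nr4a1, on either strand.
Jun: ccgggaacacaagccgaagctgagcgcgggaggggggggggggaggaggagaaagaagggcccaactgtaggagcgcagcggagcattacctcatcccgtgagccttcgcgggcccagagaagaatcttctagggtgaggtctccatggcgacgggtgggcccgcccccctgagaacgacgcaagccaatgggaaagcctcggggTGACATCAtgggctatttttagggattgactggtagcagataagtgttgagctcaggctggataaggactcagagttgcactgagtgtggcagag
Fos: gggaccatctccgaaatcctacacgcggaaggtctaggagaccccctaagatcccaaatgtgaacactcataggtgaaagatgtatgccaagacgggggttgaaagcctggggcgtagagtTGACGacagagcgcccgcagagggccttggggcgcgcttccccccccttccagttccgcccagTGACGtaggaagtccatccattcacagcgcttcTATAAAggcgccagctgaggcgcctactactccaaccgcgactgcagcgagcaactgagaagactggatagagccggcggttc
Atf3: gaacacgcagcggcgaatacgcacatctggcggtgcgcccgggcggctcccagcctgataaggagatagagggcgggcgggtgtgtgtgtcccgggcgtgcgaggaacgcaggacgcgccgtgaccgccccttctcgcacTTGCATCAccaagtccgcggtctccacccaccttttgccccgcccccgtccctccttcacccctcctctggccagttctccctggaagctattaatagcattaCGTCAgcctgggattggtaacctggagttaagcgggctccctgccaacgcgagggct
Nr4a1: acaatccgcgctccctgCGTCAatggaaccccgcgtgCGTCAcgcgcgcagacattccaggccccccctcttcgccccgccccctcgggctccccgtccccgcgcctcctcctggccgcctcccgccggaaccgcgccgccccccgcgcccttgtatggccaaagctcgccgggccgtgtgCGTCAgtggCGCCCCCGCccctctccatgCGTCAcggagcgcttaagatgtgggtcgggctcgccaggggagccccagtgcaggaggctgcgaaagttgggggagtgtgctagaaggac

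The octamer TGACNTCA has the form of a site for AP-1 and ATF proteins with any base in its centre, and the match in Jun, TGACATCA from position -45 to position -38, is the only one in the 8 windows. Of 32851 RefSeq promoters of this length, 8.83% hold it. Binding of AP-1 to a site of this form is known from the human JUN promoter, and the match here is a description of the letters only. TGACG, which is the first 5 bases of the full CREB site TGACGTCA, was found in the windows of Fos, Fosb, Junb, Atf3, Klf4 and Nr4a1, 6 of 8, against 20.8% of all promoters. Fos held it at positions -129 and -66, counted at its first base, and TATAAA at -33. Nr4a1 held TGACG on the other strand at 4 places. The Egr site GCGNGGGCG was found in Klf4, Fosb and Nr4a1, against 5.55% of all promoters, and TGATGNAA, the form of a composite C/EBP and ATF site, in Atf3 against 3.97%. G and C made up 58.7% to 74.3% of the 6 windows with TGACG, which include those with the Egr site. The median of all promoters was 52.7%, and the shares were not adjusted for this. TATAAA was in Fos and, from position 1 of the transcript, in Junb, against 13.6% of promoters. No window held the full CREB site, the heptamer TGANTCA of AP-1 or the CArG box of the serum response factor, which 1.79%, 7.81% and 1.63% of promoters hold. Sites further upstream than the windows were not searched, and Egr1 and Ier2 had no window. Whether these genes lack such sites was therefore not tested. TGACGTCA is a special case of TGACNTCA, and the 2 were counted apart. The Jund window ends before the start of Jund in GENCODE M21, so its letters belong to another start. Atf3 and Nr4a1 span chr1:191170296-191218039 and chr15:101254269-101274795 in GENCODE M21. Their windows lie inside these spans, so they belong to starts within the genes and not to the outermost ones.

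In GENCODE M21 on GRCm38, which lists 99.2% of the table's gene identifiers, all 10 members are protein-coding genes. Jun lies on chromosome 4 from 95049034 to 95052222 as a single exon on the minus strand and overlaps the antisense gene Junos, and Jund is a single exon that overlaps the antisense gene Gm11175. Junos ranged between 1.33 and 2.92 FPKM and Gm11175 between 0.0471 and 0.375 FPKM over the 12 mice. Junb, on chromosome 8 from 84974484 to 84978718, shares its end with Prdx2 on the other strand, an abundant erythroid gene at 527 to 851 FPKM. The libraries were stranded, and the sources used here do not say whether the quantification used the strand, so the values of Jun, Junb and Jund are uncertain to that extent.

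The deposited values had been quantile normalized, so every mouse has the same distribution, its total lies between 636207 and 636212 FPKM, and neither the depth of a mouse nor a change in total mRNA can be seen. Between 6856 and 8057 genes were listed at 0 per mouse. Of the tested genes, 18.7% had their highest value in aged AL mouse 14, against 3.55% to 11% in each of the other 11 mice. That mouse also had the lowest summed markers of the 12 for osteoblasts (522 FPKM over 10 markers), adipocytes (268 FPKM over 8) and stromal cells (257 FPKM over 6). The same held for chondrocytes (21.4 FPKM over 6), B cells (81.0 FPKM over 7) and T and NK cells (60.8 FPKM over 6). Its sum for skeletal muscle was the highest (823 FPKM over 7). Results that rest on it are given with and without it. Markers of bone and marrow cells were present, and none of the markers in the 13 lists was at 0 in every mouse. Comparisons of CR with AL at 1 age and of aged with young on 1 diet share groups, so each is given by its own values.

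The first question was how CR differed from AL in young mice. Jun, Egr1, Klf4 and Atf3 were higher in every young CR mouse than in every young AL mouse, 4 of the 9 tested members, against 10.1% of all tested genes with every CR mouse above every AL mouse. None of the 9 passed at an adjusted p under 0.05 over all genes in limma, where 9 of 13590 genes, 0.0662%, passed in either direction. At an unadjusted p under 0.05, 3 members were higher and none lower, against 5.79% of all tested genes that were higher.

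Jun, the AP-1 partner of Fos, had 4.40, 4.91 and 4.39 FPKM in young CR mice 1, 2 and 3, against 2.81, 2.27 and 3.01 FPKM in young AL mice 9, 10 and 11. The groups did not overlap, and the lowest CR mouse was well above the highest AL mouse. The means were 4.57 ± 0.293 FPKM in CR and 2.70 ± 0.383 FPKM in AL mice (SD, n = 3 each), a ratio of 1.69. On the log2(FPKM + 1) scale, which understates the change of a low gene, the difference was 0.59 (standard error 0.14, 95% interval 0.29 to 0.90) with an adjusted p of 0.175 from limma. Without aged AL mouse 14, which is in neither group and enters only through the spread pooled over the 4 groups, the difference was again 0.59, its standard error 0.09 and the limma adjusted p 0.0294, with 0.316% of all genes called.

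Egr1, a target of the serum response factor that acts in early growth responses, had 2.85, 2.68 and 2.73 FPKM in young CR mice, against 2.11, 1.90 and 1.67 FPKM in young AL mice. The CR mice lay close together and all above the AL mice. The log2 difference was 0.38 (standard error 0.10, 95% interval 0.17 to 0.59, limma adjusted p = 0.200), with a ratio of mean FPKM of 1.45. Klf4 had 8.47, 7.52 and 7.90 FPKM in young CR mice, against 6.71, 7.12 and 6.71 FPKM in young AL mice, which did not overlap. Its log2 difference was 0.19 (standard error 0.07, 95% interval 0.03 to 0.36, limma adjusted p = 0.393). Atf3 had 2.26, 2.40 and 3.04 FPKM in young CR mice, against 1.67, 2.1 and 1.71 FPKM in young AL mice. The groups did not overlap, but the gap between the nearest mice was small, and the log2 difference was 0.33 (standard error 0.35, 95% interval -0.45 to 1.11, limma adjusted p = 0.764). Without aged AL mouse 14 the standard error of Atf3 was 0.11 and the limma adjusted p 0.236.

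Fos had 7.24, 5.12 and 6.50 FPKM in young CR mice, against 3.43, 6.13 and 5.27 FPKM in young AL mice, so the groups overlapped. Its log2 difference was 0.31 (standard error 0.27, 95% interval -0.28 to 0.90, limma adjusted p = 0.698). Fosb, which was not tested, had 0.361, 0.204 and 0.287 FPKM in young CR mice, against 0.00, 0.0945 and 0.148 FPKM in young AL mice. These groups did not overlap at very low values, and in a limma fit with no minimum level, over 28537 genes, the log2 difference of Fosb was 0.25 (standard error 0.06, adjusted p = 0.301). Junb, Jund, Nr4a1 and Ier2 overlapped between the diets, with log2 differences of 0.19, -0.05, 0.08 and 0.11. Over the 9 members the median log2 difference was 0.19 and 8 were above 0, while the median of all tested genes was 0.01 and 52.2% were above 0.

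Several cell types also differed between the young groups. Summed over the marker lists, adipocyte markers lay between 555 and 769 FPKM in young CR mice, against 289 to 329 FPKM in young AL mice, and osteoclast markers between 699 and 836 FPKM in CR, against 523 to 673 FPKM in AL. All 8 adipocyte markers and 4 of the 7 osteoclast markers were higher in every CR mouse. The endothelial sum was 40.5 to 41.8 FPKM in CR, against 37.8 to 38.5 FPKM in AL, but its markers went both ways, with 3 of 7 higher and Pecam1 lower in every CR mouse. Osteoblast markers lay between 944 and 1410 FPKM in young CR mice, against 1650 to 2330 FPKM in young AL mice, B cell markers between 153 and 198 FPKM, against 262 to 318 FPKM, and megakaryocyte markers between 769 and 970 FPKM, against 1200 to 1390 FPKM. All 7 B cell and all 5 megakaryocyte markers were lower in every CR mouse, but only 4 of the 10 osteoblast markers, among them the abundant Bglap and Bglap2, while the other 6 overlapped. The sums of the other 7 lists overlapped. The part of these cell types in the differences of Jun, Egr1, Klf4 and Atf3 was not tested.

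The same question was asked in aged mice. No member was higher in every aged CR mouse than in every aged AL mouse, against 5.7% of all tested genes, and Junb was lower in every CR mouse, against 5.33%. Neither any member nor any other gene passed the adjusted threshold in limma, 0% of those tested, nor in the unequal-variance test on FPKM, while 1049 genes had an unadjusted p under 0.05 in limma. At an unadjusted p under 0.05 only Junb was lower, against 3.22% of all genes. Junb had 13.2, 11.9 and 12.7 FPKM in aged CR mice 5, 6 and 7, against 14.3, 19.8 and 14.5 FPKM in aged AL mice 13, 14 and 15. The log2 difference was -0.33 (standard error 0.13, 95% interval -0.62 to -0.03, limma adjusted p = 0.611) and -0.18 without aged AL mouse 14 (standard error 0.12, limma adjusted p = 0.768).

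Jun had 4.46, 4.58 and 4.71 FPKM in aged CR mice, against 3.29, 5.29 and 3.29 FPKM in aged AL mice. The 3 CR mice lay between mouse 14 and the other AL mice, so the groups overlapped only through mouse 14. The log2 difference was 0.20 (standard error 0.14, 95% interval -0.11 to 0.50, limma adjusted p = 0.778) with that mouse and 0.38 without it (standard error 0.10, limma adjusted p = 0.309). Atf3 showed the same layout, with 2.32, 2.74 and 2.96 FPKM in aged CR mice, against 1.68, 7.68 and 1.71 FPKM in aged AL mice. Its log2 difference was -0.12 (standard error 0.35, limma adjusted p = 0.967) with mouse 14 and 0.44 without it (standard error 0.12, limma adjusted p = 0.346). The sign of the Atf3 difference therefore rested on 1 mouse.

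Fos had 3.19, 4.28 and 3.46 FPKM in aged CR mice, against 2.81, 6.84 and 2.75 FPKM in aged AL mice, and Nr4a1 5.87, 3.58 and 5.49 FPKM in aged CR mice, against 4.30, 11.3 and 4.47 FPKM in aged AL mice. Both were highest in mouse 14 among the aged mice. The log2 difference of Fos was -0.06 with that mouse and 0.29 without it (limma adjusted p = 0.981 and 0.777), and that of Nr4a1 -0.27 and 0.13 (limma adjusted p = 0.869 and 0.902). Jund had 17.6, 18.3 and 19.0 FPKM in aged CR mice, against 20.3, 18.7 and 26.4 FPKM in aged AL mice, a log2 difference of -0.23 with mouse 14 and -0.32 without it (limma adjusted p = 0.690 and 0.487). Egr1 had 2.1, 2.73 and 2.40 FPKM in aged CR mice, against 2.12, 2.44 and 2.50 FPKM in aged AL mice. Its difference was 0.02 with a 95% interval of -0.19 to 0.23, and that of Klf4 was -0.01 with an interval of -0.17 to 0.15, so these 2 genes were measured narrowly around 0 at this age. Ier2 and Fosb overlapped between the diets. Of the 13 marker sums, that of adipocytes alone separated the aged groups, at 563 to 950 FPKM in CR against 268 to 541 FPKM in AL. Of its 8 markers, 5 were higher in every aged CR mouse and 3 overlapped. The part of adipocytes in these values was not tested.

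**Figure D2:**
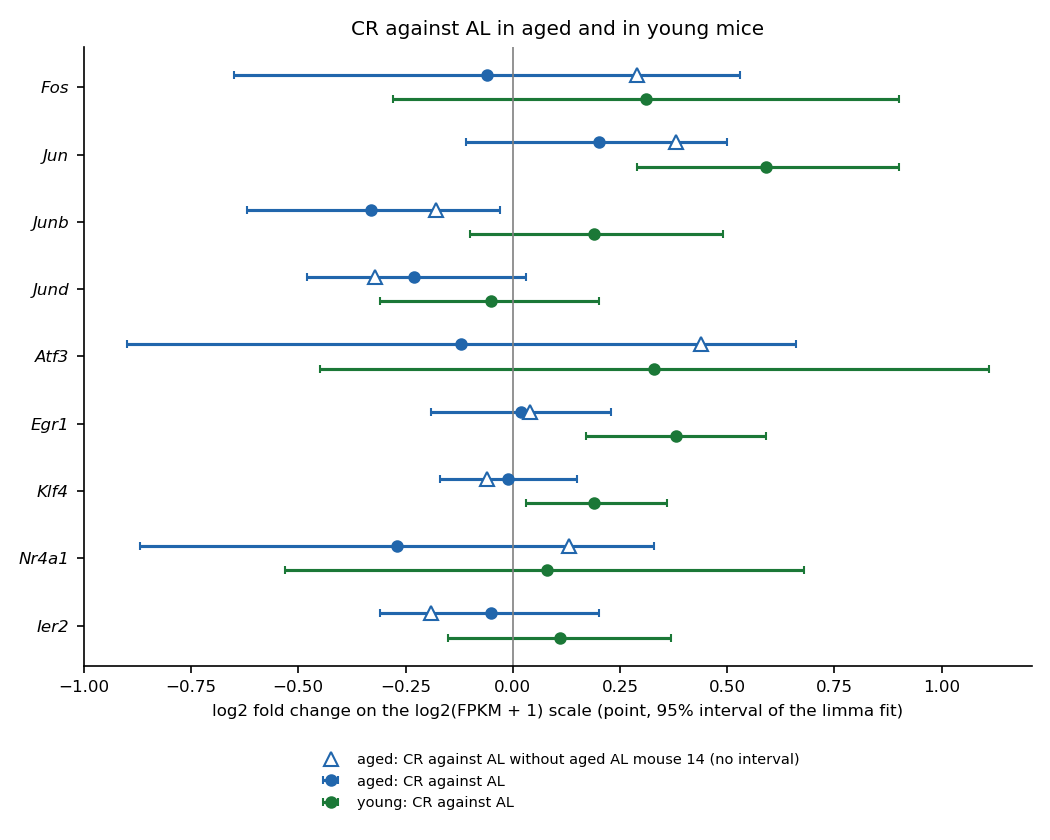
Differences of CR and AL means on the log2(FPKM + 1) scale for the 9 tested members, in aged mice (blue, upper) and young mice (green, lower), with 95% intervals of the limma fit. Triangles give the aged difference without aged AL mouse 14, which moved Atf3 to 0.44 from the plotted -0.12 and Jun to 0.38 from 0.20.

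Over both ages together, 2 members were higher with CR at an unadjusted p under 0.05, against 7.42% of all tested genes, and none passed the adjusted threshold, which 0.258% of all genes passed. They were Jun, with a log2 difference of 0.39 (standard error 0.10, limma adjusted p = 0.111), and Egr1, with 0.20 (standard error 0.07, limma adjusted p = 0.228). Without aged AL mouse 14 the difference of Jun was 0.49 (standard error 0.07, limma adjusted p = 0.0108) and Jun was then called, as were 1.05% of all genes. Atf3 had a difference of 0.11 over the 12 mice (standard error 0.25, limma adjusted p = 0.884) and of 0.39 without mouse 14 (standard error 0.08, limma adjusted p = 0.0571). When aged CR mouse 5 was left out as well, Atf3 passed with a difference of 0.42 (limma adjusted p = 0.0295), in a fit that called 3.25% of all genes. Egr1 passed in none of these fits, but did where each mouse was weighted by its quality (difference 0.26, limma adjusted p = 0.0245), a fit that called 6.79% of all genes.

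The interaction asks whether the effect of CR differed between the ages. All 9 differences, the CR effect in aged minus that in young mice, were below 0, between -0.52 and -0.17, with a median of -0.35 against -0.01 for all tested genes, of which 47.7% were above 0. None passed the adjusted threshold in limma, nor did any other gene (0%), of which 575 had an unadjusted p under 0.05. At an unadjusted p under 0.05 there were 2 members, against 1.86% of all genes with a difference below 0. These were Junb at -0.52 (standard error 0.19, limma adjusted p = 0.999) and Egr1 at -0.35 (standard error 0.14, limma adjusted p = 0.999). Without aged AL mouse 14, Atf3 and Nr4a1 were above 0, at 0.11 and 0.05, and Fos was at -0.02. The other members stayed below 0 in that fit. Junb, Egr1, Klf4 and Ier2, at -0.37, -0.34, -0.25 and -0.30, had an unadjusted p under 0.05 (limma adjusted p = 0.97 for each). Jun and Jund were at -0.22 and -0.27. No member passed the adjusted threshold with or without mouse 14, so a difference between the ages in the effect of CR was not shown for any member.

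Aged mice were also compared with young mice. Over both diets, 2 members were lower and 1 higher in aged mice at an unadjusted p under 0.05, against 9.76% of all tested genes lower and 6.8% higher. None of the 9 passed the adjusted threshold, which 0.758% of all genes passed. Fos, the gene with the largest decrease, had a log2 difference of -0.46 (standard error 0.19, 95% interval -0.88 to -0.04, limma adjusted p = 0.260). Without aged AL mouse 14, Fos was lower by -0.64 (standard error 0.13, limma adjusted p = 0.0486) and was called, as were 1.32% of all genes. In that fit it had 2.75 to 4.28 FPKM in the 5 remaining aged mice, against 3.43 to 7.24 FPKM in the 6 young mice, which still overlapped. With aged CR mouse 5 left out as well, the call of Fos was lost (difference -0.60, limma adjusted p = 0.0673). Ier2 had a difference of -0.22 (standard error 0.08, limma adjusted p = 0.226) that was -0.15 without mouse 14 (limma adjusted p = 0.282). Nr4a1 had one of 0.48 (standard error 0.19, limma adjusted p = 0.254) that was 0.28 without mouse 14 (limma adjusted p = 0.223).

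The contrasts of age within each diet were added after the values had been seen, and whether they differ between the diets is the interaction above, in which no member passed. In CR mice, Fos, Junb, Jund and Ier2 were lower in every aged mouse than in every young mouse, 4 of 9 members, against 10.6% of all tested genes. At an unadjusted p under 0.05, 2 members were lower, against 6.39%, and none passed the adjusted threshold, which 0.361% of all genes passed. Fos averaged 3.64 ± 0.566 FPKM in aged CR mice and 6.29 ± 1.07 FPKM in young CR mice (SD, n = 3 each), a ratio of 0.580 and a log2 difference of -0.65 (standard error 0.27, limma adjusted p = 0.393). Ier2 had 25.1, 25.2 and 25.7 FPKM in aged CR mice, against 33.5, 30.3 and 30.9 FPKM in young CR mice. The aged CR mice were nearly equal, and the log2 difference was -0.30 (standard error 0.12, limma adjusted p = 0.352). Jun averaged 4.58 ± 0.126 FPKM in aged CR mice and 4.57 ± 0.293 FPKM in young CR mice (SD, n = 3 each), a log2 difference of 0.00 with a 95% interval of -0.30 to 0.31. Of the 13 marker sums, 4 separated aged from young CR mice. Megakaryocyte markers lay between 1390 and 2130 FPKM in aged CR mice, against 769 to 970 FPKM in young CR mice, with all 5 markers higher, and monocyte and macrophage markers between 1030 and 1430 FPKM, against 919 to 1020 FPKM. Chondrocyte markers lay between 29.7 and 36.9 FPKM in aged CR mice, against 67.6 to 86.6 FPKM in young CR mice, and neutrophil markers between 31200 and 42000 FPKM, against 44000 to 47700 FPKM, with 1 of 8 neutrophil markers lower in every aged mouse. The part of these cell types in the differences of Fos, Junb, Jund and Ier2 was not tested.

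In AL mice, Jun, Egr1, Klf4 and Nr4a1 were higher in every aged mouse than in every young mouse, again 4 of 9, against 5.59% of all tested genes. At an unadjusted p under 0.05, 3 members were higher, against 3.58%, and none passed the adjusted threshold, which 0.0662% of all genes passed. Jun averaged 3.96 ± 1.15 FPKM in aged AL mice and 2.70 ± 0.383 FPKM in young AL mice (SD, n = 3 each), a log2 difference of 0.40 (standard error 0.14, limma adjusted p = 0.505) and of 0.22 without mouse 14 (limma adjusted p = 0.666). The aged AL mice other than mouse 14 had 3.29 FPKM each, just above the highest young AL mouse. Nr4a1 averaged 6.71 ± 4.02 FPKM in aged AL mice and 3.53 ± 0.165 FPKM in young AL mice (SD, n = 3 each), and its log2 difference of 0.65 (limma adjusted p = 0.550) was 0.25 without mouse 14 (limma adjusted p = 0.740). Klf4 had 7.97, 7.23 and 8.16 FPKM in aged AL mice, against 6.71, 7.12 and 6.71 FPKM in young AL mice, with a log2 difference of 0.16 (standard error 0.07, limma adjusted p = 0.581). The young AL group is the one in which Jun and Klf4 were lowest, and it enters both this comparison and that of CR with AL in young mice. Chondrocyte markers lay between 21.4 and 43.0 FPKM in aged AL mice, against 60.1 to 86.6 FPKM in young AL mice, with 5 of 6 lower in every aged mouse. The endothelial sum was 41.5 to 44.7 FPKM, against 37.8 to 38.5 FPKM. Only 1 of the 7 endothelial markers, Pecam1, was higher in every aged AL mouse, and the other 6 overlapped. The part of these cell types in these values was not tested.

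**Figure D3:**
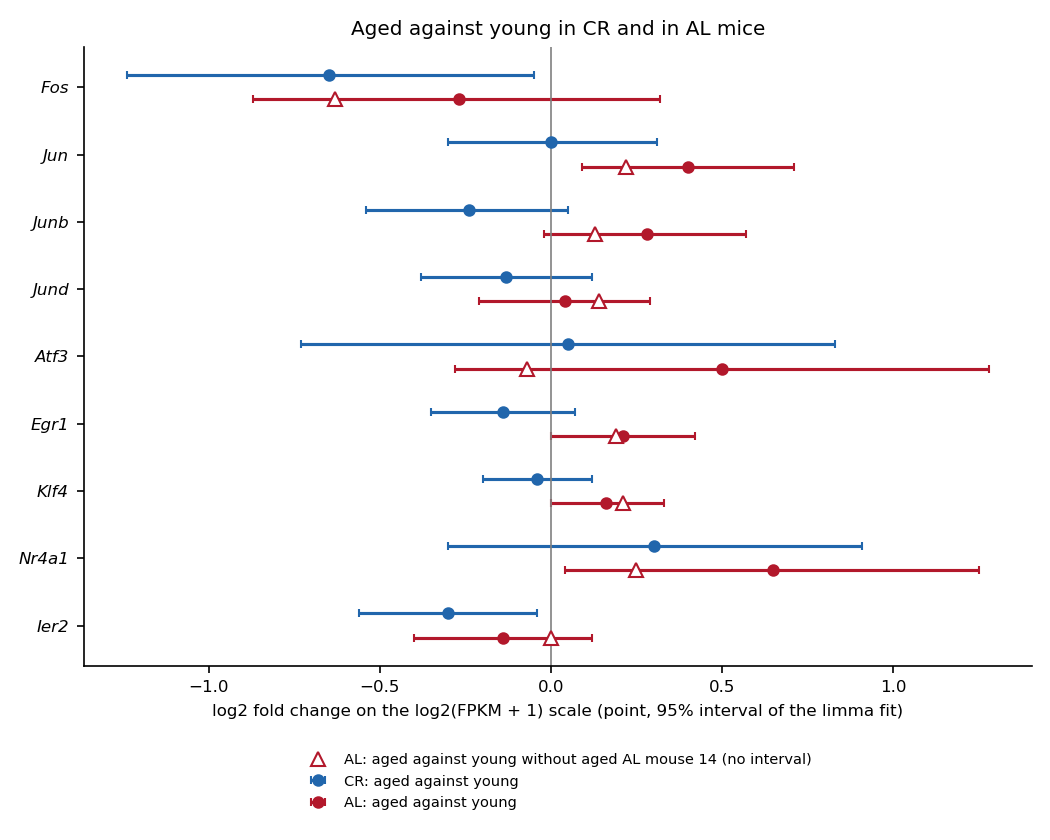
Differences of aged and young means on the log2(FPKM + 1) scale for the 9 tested members, in CR mice (blue, upper) and AL mice (red, lower), with 95% intervals of the limma fit and triangles for the AL difference without aged AL mouse 14. Fos was at -0.65 in CR mice and at -0.27 in AL mice, where leaving out that mouse moved it to -0.63.

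The values of aged AL mouse 14 were set against those of the other aged AL mice, 13 and 15, as a description of 1 mouse with no test. Atf3 was 4.53 times, Nr4a1 2.59 times and Fos 2.46 times the mean of those mice, and 2.1% of all tested genes were at 2 times or more. Jun was at 1.61 times and Junb at 1.38 times, Egr1 at 1.06 times, and Klf4, Jund and Ier2 at 0.896, 0.803 and 0.751 times. The members therefore did not move as a block in this mouse, and Ier2 was the lowest of all 12 mice there at 21.8 FPKM. Among genes related to the members, Batf3 and Batf, bZIP partners of Jun in immune cells, stood out. Batf3 was at 33.2 FPKM in mouse 14, against 3.03 and 3.30 FPKM in mice 13 and 15, and Batf at 19.0 FPKM, against 7.33 and 8.14 FPKM. The early response genes Nfkbiz and Socs3, an inhibitor of kappa B protein and a brake on cytokine signalling, were high there too. Nfkbiz was at 13.8 FPKM in mouse 14, against 3.64 and 4.42 FPKM in mice 13 and 15, and Socs3 at 15.5 FPKM, against 5.62 and 6.30 FPKM. Of the 38 other early response genes tested, 10 were highest of the 12 mice in mouse 14, 3 were at 2 times or more, and the median ratio was 0.884. Among the tested genes, those furthest above the other aged AL mice were Fcrl5, Cd300e and Fam132b, at 70.9, 48.2 and 43.0 times, and the level in mouse 14 counts toward the minimum mean for testing.

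**Figure D4:**
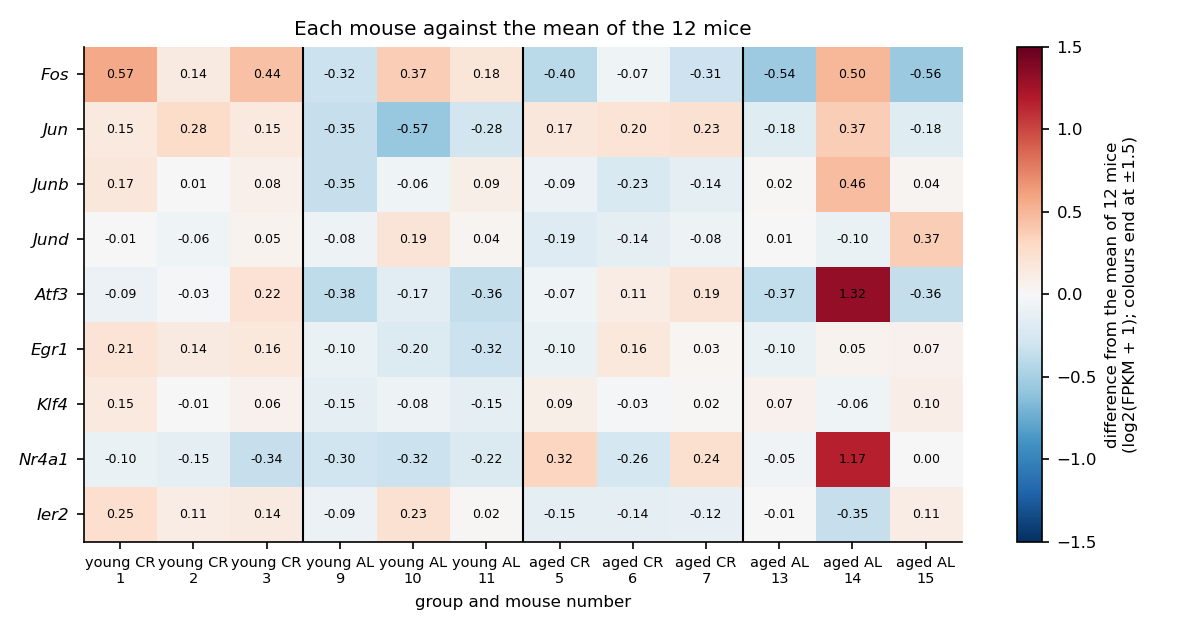
Difference of each mouse from the mean of the 12 mice on the log2(FPKM + 1) scale for the 9 tested members, with mice in columns by group, red above and blue below the mean. Aged AL mouse 14 was at 1.32 for Atf3 and 1.17 for Nr4a1, and young AL mouse 10 at -0.57 for Jun.

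How far the members moved together was described over pairs. Of the 36 pairs of tested members, 9 had a Pearson r above 0.5 over the 12 mice and 11 were below 0, with a median of 0.18. The mice share 4 groups, so these values are not independent. Jun and Egr1 had an r of 0.70 and Jun and Atf3 of 0.66, and both were 0.73 over the 11 mice without aged AL mouse 14. Atf3 and Nr4a1 had an r of 0.80, which was 0.12 without that mouse. Fos and Jun, the AP-1 pair, had an r of 0.20, and Jun and Jund one of -0.57. Ier2 and Junb were at -0.04 with mouse 14 and at 0.71 without it.

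Genes with the pattern most like the mean of the 9 members over the 12 mice were Pno1 (r = 0.93), Ptprm (0.92), Fam210a (0.92), Heatr3 (0.91), Mras (0.90), Wdr46 (0.89) and Eef1d (0.89), and without mouse 14 their r lay between 0.74 and 0.87. Most like Fos were Rpl5-ps2 (0.92), Uchl5 (0.91), Gm13430 (0.91), Psma2 (0.90) and Ranbp1 (0.89). For Jun, chosen after its values were seen, they were Cdkn1a (0.95), Cct7 (0.93), Mogs (0.92), Nolc1 (0.92) and Nop2 (0.92). Cdkn1a, the cell cycle inhibitor p21, had 7.44, 10.3 and 8.89 FPKM in young CR mice, against 6.17, 4.60 and 6.93 FPKM in young AL mice. In aged mice it had 9.31, 8.90 and 9.17 FPKM with CR, against 7.51, 9.97 and 6.53 FPKM with AL. Like Jun it was highest in mouse 14 among the AL mice, and with group means taken away the r was 0.86.

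Related genes were counted in 7 lists. For all tested genes over both ages, 7.42% were higher and 6.45% lower with CR at an unadjusted p under 0.05, 50.8% were above 0 and the median was 0.00. At an unadjusted p under 0.05, 4 of 14 tested partners of AP-1 and other bZIP genes were higher in young CR than in young AL mice. None was lower, and 5.79% of all tested genes were higher in that comparison. Over both ages 3 of the list were higher and none lower, and Maf was the only one to pass the adjusted threshold. Maf, a bZIP factor of macrophage and lens differentiation, had 10.1, 11.8 and 11.7 FPKM in young CR mice, against 7.71, 8.03 and 7.81 FPKM in young AL mice. In aged mice it had 15.0, 12.3 and 13.7 FPKM with CR, against 9.58, 6.83 and 8.50 FPKM with AL. The groups overlapped at neither age, and Maf rose over both ages by a log2 difference of 0.56 (standard error 0.08, limma adjusted p = 0.0299). The call was lost when young CR mouse 2 or 3, young AL mouse 9, 10 or 11 or aged CR mouse 7 was left out, with an adjusted p of up to 0.105 in limma. It was also lost in the limma fit with no minimum level (adjusted p = 0.0681). The median of the list was 0.02 over both ages, against 0.00 for all tested genes. Of 9 tested Egr, Nr4a and Klf relatives and their Nab corepressors, none passed, and the median was 0.01.

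Of 38 other immediate early and early response genes, 7 were higher and 2 lower with CR over both ages at an unadjusted p under 0.05, against 7.42% and 6.45% of all tested genes, with a median of -0.01. Dusp2, a nuclear phosphatase of the ERK kinases, was the only one to pass the adjusted threshold. It had 6.80, 6.99 and 6.23 FPKM in young CR mice, against 9.30, 9.24 and 10.2 FPKM in young AL mice, and 5.14, 5.06 and 5.38 FPKM in aged CR mice, against 6.51, 9.85 and 8.50 FPKM in aged AL mice. Dusp2 fell by 0.52 on the log2 scale (standard error 0.08, limma adjusted p = 0.0465). The call held in 3 of the 12 fits without 1 mouse, those without aged CR mouse 5, aged AL mouse 13 or aged AL mouse 14. It was lost in the other 9, with limma adjusted p of up to 0.127, and in the limma fit with no minimum level (adjusted p = 0.0858). Per1, a clock gene that is also an early response gene, had log2 differences of 0.70 in aged and 1.05 in young mice (limma adjusted p = 0.521 and 0.162). Hbegf, a ligand of the EGF receptor, had 2.71, 1.94 and 2.41 FPKM in young CR mice, against 1.19, 0.926 and 1.02 FPKM in young AL mice, a log2 difference of 0.71 (limma adjusted p = 0.157). In aged mice its difference was 0.06. Of 24 upstream kinases and factors, 4 were lower and none higher over both ages at an unadjusted p under 0.05, with Elk4, a ternary complex factor, at -0.29 (limma adjusted p = 0.162), and the median was -0.04.

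Heat shock and glucocorticoid response genes were counted as lists of other stress responses. The glucocorticoid list shares Per1, Sgk1 and Dusp1 with the early response list and Klf9 with the Klf relatives, so the counts of these lists are not separate. Of 10 tested heat shock genes, 4 were higher and none lower over both ages at an unadjusted p under 0.05, against 7.42% of all tested genes higher, and all 10 were above 0, against 50.8% of all. The median was 0.15. Hsph1, a cochaperone of HSP70, rose by a log2 difference of 0.73 (standard error 0.10, limma adjusted p = 0.0161). It had 16.0, 14.9 and 17.4 FPKM in young CR mice, against 6.75, 8.68 and 9.74 FPKM in young AL mice, and 14.8, 17.6 and 14.6 FPKM in aged CR mice, against 8.44, 11.7 and 10.2 FPKM in aged AL mice. The groups overlapped at neither age, and the limma adjusted p reached 0.0534 when young CR mouse 1, young AL mouse 10 or aged CR mouse 6 or 7 was left out, each of which ended the call. The limma fit with no minimum level also ended it (adjusted p = 0.0615). Of 14 tested glucocorticoid response genes, 10 were higher and none lower over both ages at an unadjusted p under 0.05, against 7.42% of all tested genes higher, with a median of 0.36 against 0.00 for all. Sult1a1, a sulfotransferase, was the only one to pass, with a log2 difference of 1.05 (standard error 0.17, limma adjusted p = 0.0465). Its call held in 3 of 12 fits without 1 mouse, those without aged CR mouse 5 or aged AL mouse 14 or 15, with limma adjusted p of up to 0.130 in the others. The call of Sult1a1 was also lost in the limma fit with no minimum level (adjusted p = 0.099). Of 14 genes with textbook AP-1 sites, 4 were higher and none lower over both ages at an unadjusted p under 0.05, none passed, and the median was 0.12. Among them Hmox1, heme oxygenase, had a log2 difference of 0.66 (limma adjusted p = 0.0977).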

How the data were processed

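The authors trimmed stranded mRNA reads with Trim Galore 0.5.0, mapped them to mm10 with STAR 2.6.1, quantified FPKM per gene with StringTie 2.1.3b and applied quantile normalization, per the study's methods. The deposited FPKM table has 12 columns, 1 per mouse, all of which were used. How the 4 technical repeats were combined and which gene annotation was used are not given in the sources used here. Counts were not used, and sequencing depth is unknown. The 13590 genes that averaged 1 FPKM or more were fitted on the log2(FPKM + 1) scale with limma 3.58.1 in R 4.3.3, with 4 group means and a variance trend, and p-values were Benjamini-Hochberg adjusted over all of them with a threshold of 0.05. The fit was run on simulated data with planted changes, drawn independently for each gene and without an outlying mouse. That check covered the median size of the estimated changes and set no requirement on calls at the adjusted threshold. The study itself used an unequal-variance test on FPKM, which was run as an alternative, as were another pseudocount, no minimum level, another scaling, quality weights, fits of only 2 groups and fits without single mice. With 3 mice per group the smallest p of an exact permutation test is 0.1. The members and gene lists were chosen with earlier results of these data known. All 10 members were named, from each list up to 4 genes by smallest p and those that passed, and by likeness the 8 genes with the highest r to the members' mean, 1 of which is not reported here, and the 5 to Fos. The contrasts of age within a diet, likeness to Jun, and the genes named for mouse 14 were chosen after values were seen.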

Additional observations from a re-analysis of the deposited data

How the results depend on the processing

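Of 1188 values of the 9 tested members under alternatives, 44 turned their sign and the other 1144 were counted as kept. Many of these could not turn, so the count does not measure stability. The unadjusted and unequal-variance settings reuse the main difference, and a left-out mouse of neither compared group leaves it unchanged. Values that rounded to 0 were also counted as kept. No paired analysis was possible because the mice of different groups carry different numbers and the repeat numbers in the labels mark technical repeats. The number of members called was 0 in every comparison, and it moved as follows; the cause was not tested. With quality weights it was 2 in young mice, over both ages, with age over both diets and with age in CR mice, where 2.24%, 6.79%, 13.2% and 12.6% of all genes were called. With both aged AL mouse 14 and aged CR mouse 5 left out it was 1 in young mice and 2 over both ages, where 1.18% and 3.25% of all genes were called. The unequal-variance test on FPKM gave 3 unadjusted in young mice, where 8.65% of all genes were called. Unadjusted limma counts were 3 in young mice, 1 in aged mice and 2 over both ages, against 11%, 7.72% and 13.9% of all genes. They were 3 with age over both diets and 2 for the interaction, against 16.6% and 4.23%. With age in CR mice and in AL mice they were 2 and 3, against 11.4% and 8.65%. Each share counts genes in either direction. With 1 mouse left out, the number of members called at the adjusted threshold ranged between 0 and 1. It did so in young mice, over both ages and with age over both diets, with 1 only without aged AL mouse 14.

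Reversed log2 differences of CR and AL in aged mice were, with quality weights, 0.23 for Fos, 0.40 for Atf3 and 0.08 for Nr4a1, and without mice 14 and 5, 0.36, 0.51 and 0.02. Over both ages Nr4a1 was at 0.11 with weights and at 0.05 without both mice, where Ier2 was at -0.04. With age over both diets, Junb was at -0.07 in both settings and Jund at 0.02 without both mice. For the interaction, Atf3 was at 0.16 with weights and, without both mice, at 0.18, with Fos at 0.05. With age in AL mice, Jund was at -0.02 with weights and Atf3 at -0.07 without both mice.

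With 1 mouse left out, Jund ranged from -0.12 to 0.01 in young mice. In aged mice the ranges were -0.24 to 0.29 for Fos, -0.40 to 0.44 for Atf3, -0.04 to 0.09 for Egr1, -0.06 to 0.02 for Klf4, -0.48 to 0.13 for Nr4a1 and -0.19 to 0.04 for Ier2. Over both ages they were -0.13 to 0.01 for Junb, -0.04 to 0.39 for Atf3, -0.20 to 0.10 for Nr4a1 and -0.04 to 0.08 for Ier2. With age over both diets they were -0.06 to 0.06 for Junb and -0.01 to 0.41 for Atf3. For the interaction they were -0.74 to 0.11 for Atf3 and -0.56 to 0.05 for Nr4a1. With age, Atf3 ranged from -0.02 to 0.14 in CR mice and from -0.07 to 0.78 in AL mice, where Jund ranged from -0.10 to 0.14.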
